A study of Sus scrofa with 27 samples.

Results

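The genes described here are 10 cadherins and connexins of pig mural granulosa cells (GCs): CDH1, CDH2, CDH6, CDH9, CDH11, CDH12, GJA1, GJA5, GJC1 and GJB2. They were taken by gene symbol from 35670 annotated identifiers, and 9 of the 10 matched an identifier, while GJB2 had no match in the naming table and was not analysed here. The members were chosen by their RES against FF fold changes and per-sow counts in these same libraries, CDH9 for having the largest fall among the cadherins, so their diet contrast is given below as a description, with no p-value, and supports nothing. The animals were wild type first-parity crossbreds of Large White and Norwegian Landrace. Of these sows, 13 were full fed (FF, 6.5 kg of feed per day) and 14 were restricted (RES, 3.25 kg per day) for the final 2 weeks of lactation. Both groups then received the same ration for the 2 days between weaning and ovary collection, which the design text calls full feeding and the methods put below the lactation ration of either diet. Per sow, 1 library was made from GCs cut by laser microdissection out of 1 healthy follicle, the largest in the right ovary. The paper reports that these follicles were smaller on average in RES than in FF, so diet and follicle size go together too. The sows of each diet were a selection, those with the least weight loss in FF and those with the most in RES, so diet and weight loss go together in these groups.

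Cadherins are calcium-dependent adhesion proteins that bind the same or a related cadherin on the neighbouring cell and are held to actin inside the cell by catenins. The classical cadherins include E-cadherin (CDH1), N-cadherin (CDH2), VE-cadherin of endothelium (CDH5) and a type II branch to which CDH6, CDH9, CDH11 and CDH12 belong. Connexins assemble into hemichannels that dock between cells as gap junctions and let ions and small molecules such as cyclic nucleotides pass. In the follicle, GJA1 is the main connexin between GCs, and N-cadherin is the classical cadherin best known from the granulosa layer.

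The libraries held 12299220 to 16021200 counts in FF and 12942198 to 18120922 in RES, each count a unique fragment on the exons of a gene. Values are normalised counts (counts divided by a size factor per library) unless stated. Fold changes come from edgeR's quasi-likelihood fit over 11384 named genes with a mean of at least 5 counts, in which 1610 (14.1%) passed an adjusted p of 0.05, 8.29% of the genes tested being higher and 5.85% lower in RES. The 11 granulosa markers with an identifier summed to between 79946 and 161846 per sow over both diets, and 1 of the 11, the oestradiol-forming enzyme HSD17B1, was higher in RES (log2 fold change 0.56 ± 0.17, adjusted p = 0.027 by edgeR). Summed theca markers ranged from 1760 to 5759 in FF and from 921 to 4893 in RES (1 of 8 tested lower in RES, none higher), endothelial markers from 1436 to 2764 and from 1019 to 2850 (5 of 12 lower), and smooth muscle and pericyte markers from 3103 to 8528 and from 2097 to 8396 (2 of 10 lower). Stroma markers summed to 13828 to 38696 in FF and 11211 to 36044 in RES with 0 of 9 past the threshold, immune markers were at most 446 and 355, and the erythroid marker HBB was lower in RES (log2 fold change -1.89 ± 0.53, adjusted p = 0.0171 by edgeR), with erythroid sums of 35.5 to 1070 in FF and 9.63 to 147 in RES. The oocyte list summed to 3463 to 12457 in FF and 4684 to 15680 in RES, most of it KIT (means 6972 and 8380), with GDF9 at means of 229.4 and 209.9, while ZP2, ZP3, ZP4, FIGLA, NLRP5 and ZAR1 averaged under 1 count, and no marker of the 9 lists was at 0 in every library. Genes of the lists for other cells were thus detected in the captures, though the sum of the oocyte list rests mostly on KIT. In such bulk samples fewer cells of a type and less RNA per cell cannot be told apart. By the base quality of their reads the libraries form an upper set of 7 FF and 7 RES and a lower set of 6 FF and 7 RES, and fold changes are also given within each set. FF sow 10 and RES sow 7 stood apart from the other libraries of their diets, and values without them are given where they matter. The RNA quality record of the study puts FF sow 10 lowest of the FF sows in RNA integrity, and it lists a sow 9 too. The labels number the FF sows 1 to 8 and 10 to 14, so that FF sow 9 is not analysed here, and it could not be settled from that record which FF sow the authors left out for its RNA. FF sow 10 had the lowest CDH2 and GJA1 and the highest CDH6, CDH11, GJA5 and GJC1 of its diet.

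Of the 9 genes with an identifier, 7 reached the minimum of 5 counts, and 3 of those 7 passed the threshold in RES against FF, 1 higher and 2 lower, beside 14.1% of all genes tested. Since that contrast entered the choice of the genes, nothing is read from this share. The 2 lower ones are CDH9 and GJA1 and the higher one is GJC1. CDH1 and CDH12 were under the minimum.

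**Figure D1:**
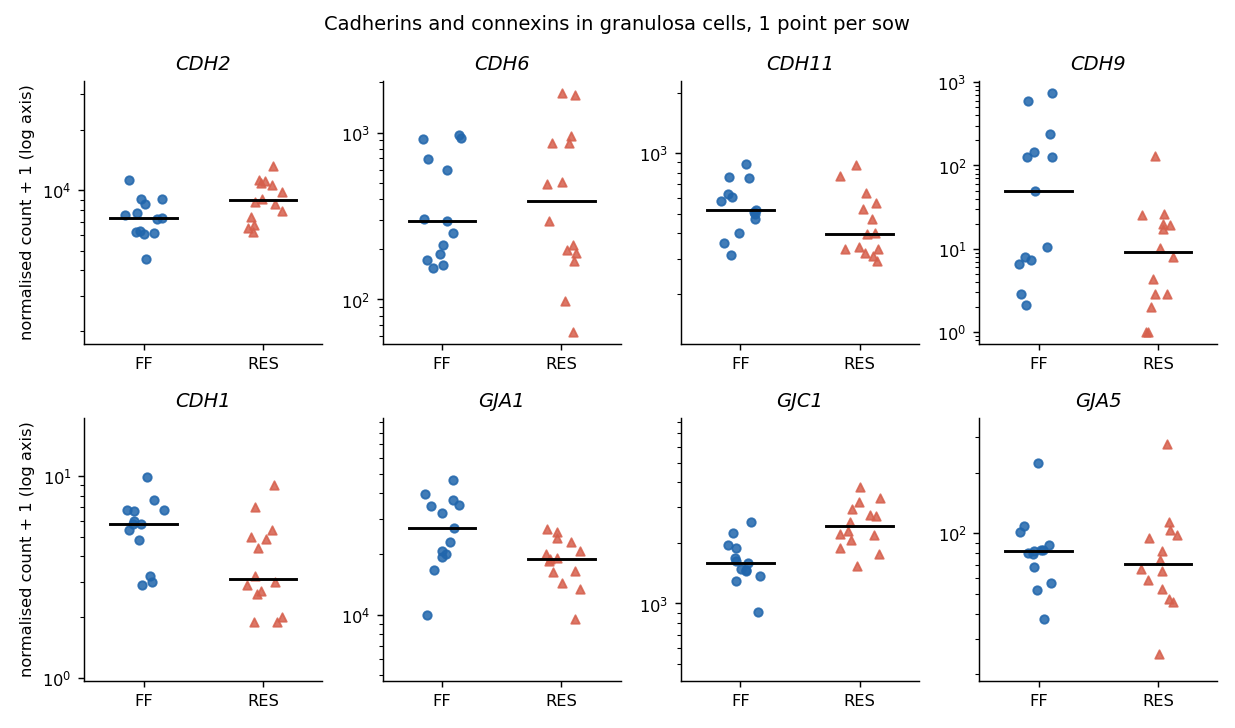
Normalised counts plus 1 on a log axis (y) of 5 cadherins and 3 connexins by diet (x), with 1 point per sow (13 FF, circles, and 14 RES, triangles) and the median as a line. CDH9 runs from 1.1 to 739.2 in FF and from 0 to 129.7 in RES, whereas CDH2 stays between 4565.9 and 13149.2 over both diets, and no gene separates the diets completely.

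Levels between genes were compared per kilobase of RefSeq exon, since the genes compared differ in exon length from 1587 bases (GJA4) to 12229 bases (CDH18). On this scale CDH2 made up 86.2% ± 5.46 (SD, n = 13) of 11 classical cadherins in FF and 89.0% ± 6.65 (n = 14) in RES. CDH6 and CDH11 followed with 5.05% ± 3.81 and 5.15% ± 2.13 in FF, a pair whose order does not stand out from their spread. CDH9 held 0.947% ± 1.46 in FF and 0.102% ± 0.186 in RES, less than the 2.13% ± 0.67 and 1.23% ± 0.492 of the endothelial CDH5, but its highest FF sow reached 4.4%. CDH1 was near the bottom of the family at 0.0639% ± 0.0264 in FF and 0.0345% ± 0.0247 in RES.

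Among 6 connexins GJA1 held 96.3% ± 2.52 of the per-kilobase total in FF and 94.2% ± 2.36 in RES. GJC1 came next with 2.18% ± 1.59 and 4.17% ± 2.15, and its level per kilobase was 161.0 ± 41.3 in FF and 244.5 ± 62.8 in RES. GJC3 followed with 61.7 ± 12.1 and 51.0 ± 10.1 per kilobase, then GJA9 with 24.5 ± 6.30 and 22.1 ± 5.59 and GJA5 with 23.0 ± 12.0 and 22.6 ± 16.02, the last 2 lying within each other's spread. GJA4, the connexin of the oocyte side of the follicle and of vessels, averaged 10.5 ± 4.39 per kilobase in FF. The counts were made on Ensembl exons, so these lengths from the RefSeq gene models approximate the counted length.

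**Figure D2:**
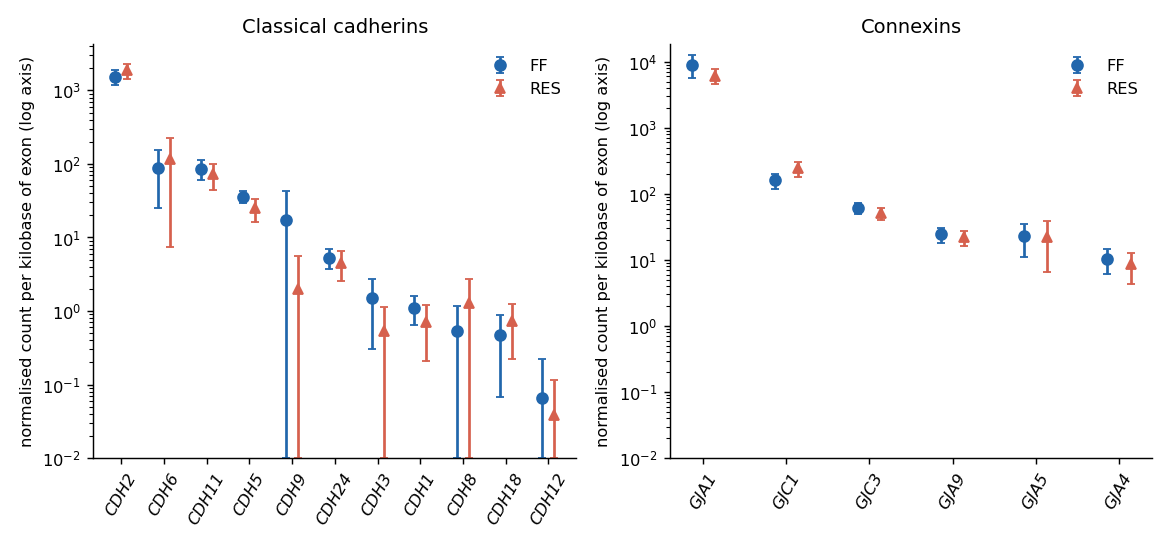
Mean normalised count per kilobase of exon on a log axis (y) for 11 classical cadherins and 6 connexins (x), with bars of 1 SD over 13 FF and 14 RES sows (bars that would pass below 0.01 end there). CDH2 and GJA1 each stand above the rest of their family in both diets, CDH9 is lower in RES, and CDH12 lies lowest of the cadherins drawn.

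CDH9, a type II cadherin best known from nerve and kidney cells, lies on the minus strand of chromosome 16 at chr16:13938711-14076498 (Sscrofa11.1) in 12 exon blocks with an exon length of 9157 bases, and no other annotated gene overlaps it. Its normalised count in FF was 1.1 in the lowest sow, 48.9 in the median sow and 739.2 in the highest. In RES it was 0 in the lowest sow, 8.1 in the median sow and 129.7 in the highest. The FF sows fell into 6 at 1.1 to 9.5 and 7 at 48.9 to 739.2 with none between, whereas 8 RES sows were at 0 to 9.2, 5 at 16.4 to 25.0 and 1, sow 2, at 129.7. The diets overlapped, with 13 of 14 RES sows below the FF median and 4 of 13 FF sows above the highest RES sow.

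The mean of CDH9 was 157.5 ± 239.9 (SD, n = 13) in FF and 18.4 ± 33.3 (n = 14) in RES, and the fitted log2 fold change of RES against FF was -3.15 ± 0.81 (SE), an 8.85-fold lower level in RES. A few sows carried most of the counts: the highest 2 FF sows, sows 6 and 1, held 65.2% of the FF sum, and the highest RES sow held 50.4% of the RES sum. Without FF sow 6 the log2 fold change was -2.61 and without RES sow 2 it was -4.00, the extremes over 27 fits that each left out 1 library. It was -4.28 ± 1.04 within the upper read quality set and -2.31 ± 1.12 within the lower, and the difference between the sets was not tested. The high FF sows were 4 of 7 in the upper set and 3 of 6 in the lower. The coefficient of variation (CV) of CDH9 was 1.52 in FF and 1.81 in RES, above that of 99.8% of the genes tested in either diet. Such percentiles, here and below, are not matched for count level, and the per-sow counts entered the choice of the genes. The 2013 counts behind the FF values and 259 behind the RES values leave single RES sows with counts from 0 upward, of which 2 were at 0. A library without a count allows up to 3 counts, equal to 0.187 to 0.244 CPM in FF and 0.166 to 0.232 CPM in RES (CPM, counts scaled to a common library total), and this limit covers counting error only.

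The 250 bases upstream of the CDH9 gene model are shown next to those of GJA1 and GJC1, the other genes of that count of 3, because they differ in base composition. Capitals mark the searched motifs, and each sequence reads 5′ to 3′ on the strand of its gene from the RefSeq genome Sscrofa11.1. The gene starts are those of the RefSeq models and may miss other start sites.
CDH9, chr16:14076499-14076748, minus strand: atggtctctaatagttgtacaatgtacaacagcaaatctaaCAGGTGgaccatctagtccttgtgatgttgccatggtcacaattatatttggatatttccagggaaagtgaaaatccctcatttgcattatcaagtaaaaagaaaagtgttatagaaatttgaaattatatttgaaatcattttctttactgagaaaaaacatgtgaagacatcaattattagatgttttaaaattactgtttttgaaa
GJA1, chr1:41002130-41002379, minus strand: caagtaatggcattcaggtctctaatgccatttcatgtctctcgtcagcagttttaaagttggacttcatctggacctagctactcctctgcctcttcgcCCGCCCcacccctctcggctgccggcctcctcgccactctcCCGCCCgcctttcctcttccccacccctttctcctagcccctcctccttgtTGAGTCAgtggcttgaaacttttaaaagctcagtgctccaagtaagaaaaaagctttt
GJC1, chr12:18525810-18526059, plus strand: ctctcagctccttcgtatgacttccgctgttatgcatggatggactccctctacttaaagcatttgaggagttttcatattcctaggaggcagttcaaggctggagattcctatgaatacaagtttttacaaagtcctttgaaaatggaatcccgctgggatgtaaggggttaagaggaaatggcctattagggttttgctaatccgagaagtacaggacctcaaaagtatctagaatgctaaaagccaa
The CDH9 stretch had 29.2% GC and 0 CpG dinucleotides, a GC content at percentile 1.2 of 19528 protein-coding genes' stretches of this length, whose median was 57.6%. The GJA1 stretch had 52.8% GC and 8 CpG, and that of GJC1 42.4% GC and 4 CpG. Both strands were searched for 8 motifs. The TATA box was spelled TATAAA. The CCAAT box was searched by its name's letters. The GC box was spelled GGGCGG and the cAMP response element TGACGTCA. The site of NR5A receptors was spelled CAAGGTCA and the forkhead site GTAAACA. The AP-1 site was spelled TGAGTCA. The E-box that SNAI and ZEB factors bind was spelled CACCTG. The CDH9 stretch held 1 E-box, a motif present in 19.6% of the stretches searched. GJA1 held 2 GC boxes (45.9% of stretches have at least 1) and 1 AP-1 site (2.89%), and GJC1 held none of the 8 motifs. These matches describe letters in a window and no binding was measured.

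CDH9 stands in a row of type II cadherin genes on chromosome 16, in the order CDH18, CDH12, CDH10, CDH9 and CDH6, with 0 protein-coding genes between neighbours over gaps of 0.869, 1.119, 1.661 and 3.455 megabases. CDH10 was between 0 and 4.3 in every sow. CDH12, a brain cadherin at chr16:9985759-10975489 on the minus strand, had 4 counts over all FF libraries and 3 over all RES libraries and was at 0 in 11 of 13 and 11 of 14, so no fold is given. CDH18 had a median of 3.9 in FF and 7.7 in RES (log2 fold change 0.57 ± 0.41, adjusted p = 0.366 by edgeR's quasi-likelihood test).

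CDH6, a type II cadherin of kidney and other epithelia at the other end of the row (chr16:17531862-17660081, plus strand), was well detected and varied widely between sows. It was 152.5 in the lowest, 296.2 in the median and 967.4 in the highest FF sow, and 62.6, 390.9 and 1727.2 in RES. In FF, 8 sows lay at 152.5 to 301.8 and 5 at 593.8 to 967.4, and in RES 7 lay at 62.6 to 293.2 and 7 at 488.5 to 1727.2, so the diets overlapped over almost the whole range. Its CV of 0.72 in FF and 0.94 in RES was above that of 96.0% and 98.4% of genes tested. The log2 fold change was 0.37 ± 0.45, and its sign differed between the upper read quality set (-0.30 ± 0.52) and the lower (1.1 ± 0.66). CDH6 and CDH9 did not run in parallel over the RES sows (Pearson's r = 0.11, Spearman's rho = 0.11, n = 14, permutation p = 0.712 for r, adjusted to 0.902 over 12 correlations). Within the upper and lower read quality sets of RES r was 0.58 and -0.24 (n = 7 in either). In FF r was 0.09 (rho = 0.04, n = 13, adjusted permutation p = 0.902).

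CDH2, the N-cadherin gene, lies at chr6:112396713-112629073 on the minus strand and was the most abundant of the 11 classical cadherins. An annotated long non-coding RNA on the opposite strand overlaps it, and since the counting command had no strand option its counts cannot be separated from that transcript. CDH2 was 4565.9 in the lowest, 7287.6 in the median and 11249.9 in the highest FF sow, against 6231.0, 8937.9 and 13149.2 in RES. The diets overlapped, with 11 of 14 RES sows above the FF median. Its log2 fold change was 0.25 ± 0.12, with -0.11 ± 0.12 in the upper read quality set and 0.66 ± 0.17 in the lower. The CV was 0.23 in either diet, near the middle of all genes tested (percentiles 44.0 and 43.4).

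CDH11, a type II cadherin known from mesenchymal cells and stroma, lies at chr6:25782746-25933753 on the minus strand. It was 309.8 in the lowest, 521.1 in the median and 885.1 in the highest FF sow, and 289.1, 396.9 and 868.6 in RES, so that 9 of 14 RES sows were below the FF median and the diets overlapped. The log2 fold change was -0.30 ± 0.18. CDH11 followed the summed stroma markers over sows of either diet, with r = 0.81 (rho = 0.77, n = 13, adjusted p = 0.0142, permutation p = 0.00076 and 0.00298) in FF and r = 0.89 (rho = 0.90, n = 14, adjusted p = 0.00168, permutation p = 6e-05 and 2e-05) in RES, among 56 correlations of 7 genes with 4 marker sums chosen after the data were seen. Without the 2 sows farthest from the CDH11 median r was 0.68 in FF, where it no longer passed the adjustment (adjusted p = 0.245 by permutation), and 0.86 in RES, where it did (adjusted p = 0.0291 by permutation), and without FF sow 10 the FF value was 0.76 and did not pass (adjusted p = 0.062 by permutation). In RES it also followed the smooth muscle and pericyte sum (r = 0.89, rho = 0.88, n = 14, adjusted p = 0.00168 by permutation) and the endothelial sum (r = 0.73, rho = 0.71, n = 14, adjusted p = 0.0266 by permutation), while in FF these r were 0.19 and -0.11 (adjusted p = 0.828 and 0.861 by permutation), and the difference between diets was not tested. Without the 2 farthest RES sows these were 0.76 and 0.73 and neither passed (adjusted p = 0.136 for either by permutation). With Spearman's rho the FF stroma value and the RES endothelial value did not pass (adjusted p = 0.0556 and 0.089 by permutation). No correlation of the other 6 genes with a marker sum passed the adjustment. Where 2 permutation p-values stand together here and below, the first is that of r and the other that of rho. Without RES sow 7 the endothelial value was 0.57 and no longer passed (adjusted p = 0.433 by permutation), while those with the stroma and the smooth muscle and pericyte sums were 0.86 and 0.84. In FF, CDH11 also ran with the library GC content, the mean GC content of the exons behind a library's counts (r = 0.67, rho = 0.51, n = 13, permutation p = 0.0102 and 0.0807, adjusted p = 0.0408), with r = 0.34 without the 2 farthest sows. In RES r was -0.29 (rho = -0.20, n = 14, permutation p = 0.317 and 0.501, adjusted p = 0.507). The part of other cells and of GC content in the CDH11 level was not tested further.

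**Figure D3:**
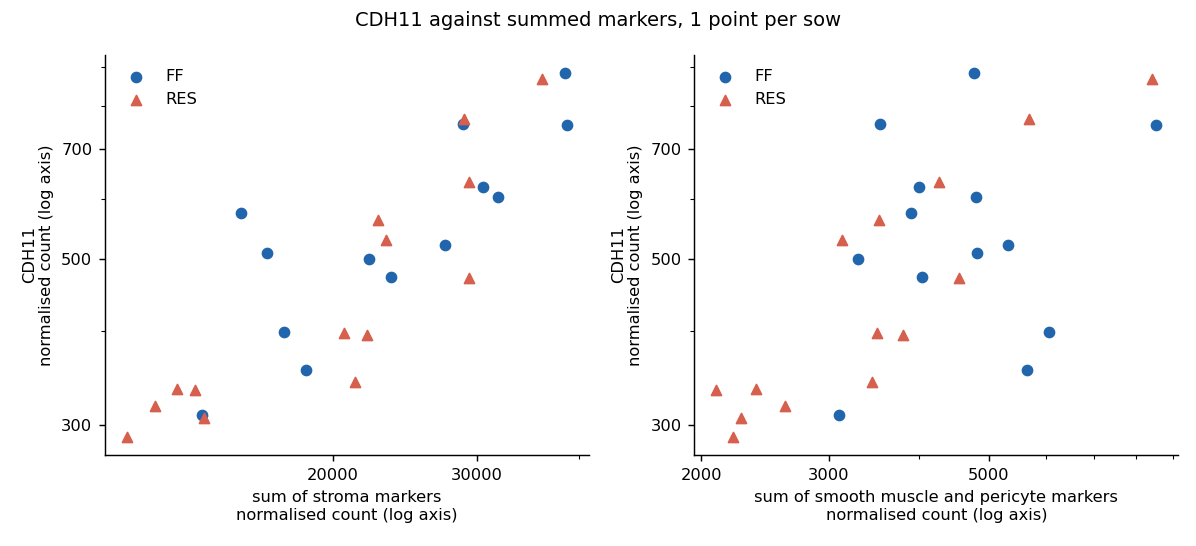
CDH11 (y) against the summed stroma markers (left, x) and the summed smooth muscle and pericyte markers (right, x) as normalised counts on log axes, with 1 point per sow (13 FF, circles, and 14 RES, triangles). CDH11 climbs with the stroma sum in both diets (r = 0.81 and 0.89), and with the smooth muscle and pericyte sum in RES (r = 0.89), while the FF sows scatter (r = 0.19).

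CDH1, the E-cadherin gene at chr6:18075487-18155986 on the minus strand, was close to the detection limit. It had 60 counts over all FF libraries and 43 over all RES libraries, with normalised counts of 1.9 in the lowest, 4.8 in the median and 8.9 in the highest FF sow and 0.9, 2.1 and 8.0 in RES. The diets overlapped, 12 of 14 RES sows lying below the FF median. In the fit without a count minimum its log2 fold change was -0.69 ± 0.31, at a few counts per library. Of the listed transcriptional repressors of E-cadherin, 4 were tested and none passed, among them the most abundant ones TCF4 (-0.31 ± 0.11, adjusted p = 0.068) and ZEB1 (0.04 ± 0.13, adjusted p = 0.859) by edgeR.

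GJA1, the gene of the main granulosa connexin, lies at chr1:40988818-41002129 on the minus strand with 2 exon blocks. Its normalised count was 9913.1 in the lowest, 26987.3 in the median and 46796.0 in the highest FF sow. In RES it was 9506.2 in the lowest, 18969.6 in the median and 26735.1 in the highest. All 14 RES sows were below the FF median and 7 of 13 FF sows were above the highest RES sow, while the lowest FF sow, sow 10, lay among the lowest RES sows. Means were 27784 ± 10600 (SD, n = 13) and 19015 ± 4837 (n = 14), with a log2 fold change of -0.58 ± 0.18, which is 0.669 of the FF level. Over the 27 fits without 1 library its log2 fold change ran from -0.65 (without FF sow 10) to -0.49 (without FF sow 14). Within the upper read quality set its value was -0.80 ± 0.24, and within the lower -0.31 ± 0.26.

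GJC1, a connexin of early heart and smooth muscle that GCs also carry, lies at chr12:18526060-18560221 on the plus strand. It was 907.8 in the lowest, 1589.6 in the median and 2542.5 in the highest FF sow, against 1526.6, 2417.6 and 3793.7 in RES. Of the RES sows 13 of 14 were above the FF median and 6 above the highest FF sow, and 6 of 13 FF sows were below the lowest RES sow. Means were 1652 ± 424 (SD, n = 13) and 2510 ± 644 (n = 14), and the log2 fold change of 0.55 ± 0.13 is a 1.46-fold higher level in RES. Over the 27 fits without 1 library it ran from 0.50 to 0.63, with 0.77 ± 0.18 for the upper read quality set and 0.31 ± 0.17 for the lower. GJA1 and GJC1 had CVs of 0.38 and 0.26 in FF and 0.25 and 0.26 in RES, between percentiles 50.2 and 73.7 of the genes tested, well below the 99.8 of CDH9.

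**Figure D4:**
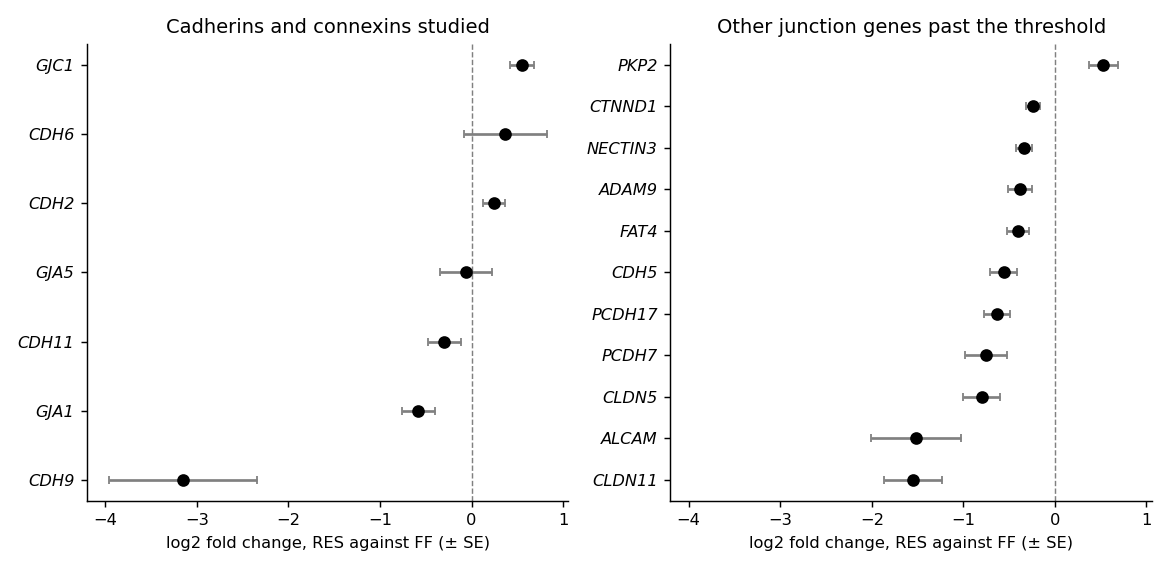
Log2 fold change of RES against FF with its SE (x) for the 7 tested cadherins and connexins (left) and the 11 other junction genes past the threshold (right). CDH9 lies lowest at -3.15 with the widest SE, GJA1 at -0.58 and GJC1 at 0.55 lie on opposite sides of 0, and 10 of the 11 other junction genes are lower in RES. The 11 are 13.3% of 83 junction genes tested, beside 14.1% of all genes tested. The median log2 fold change of the 83 was -0.05.

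GJA5, a connexin of arterial endothelium and atrial muscle at chr4:99854129-99871288 on the plus strand, was scarce in the captures. It was 36.6 in the lowest, 80.5 in the median and 222.9 in the highest FF sow, and 24.1, 69.3 and 275.9 in RES. The highest values belonged to single sows, FF sow 10 and RES sow 4, and the diets overlapped throughout. The log2 fold change was -0.06 ± 0.28, turning to 0.15 without FF sow 10 and to -0.35 without RES sow 4, and the read quality sets gave 0.54 ± 0.36 (upper) and -0.77 ± 0.34 (lower). GJA5 did not follow the summed endothelial markers over sows (r = 0.11, rho = 0.33, n = 13 in FF and r = -0.06, rho = -0.13, n = 14 in RES, with adjusted permutation p = 0.861 and 0.919). In FF it ran with the library GC content (r = 0.77, rho = 0.59, n = 13, permutation p = 0.00432 and 0.0376, adjusted p = 0.0346), and r was 0.47 without the 2 sows farthest from the GJA5 median. In RES the sign was the opposite (r = -0.38, rho = -0.50, n = 14, permutation p = 0.176 and 0.0729, adjusted p = 0.314), with r = -0.54 without the 2 farthest sows.

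Over the sows of either diet the r of GJA1 and GJC1 was negative and did not pass the adjustment. Pearson's r was -0.73 in FF (rho = -0.77, n = 13, permutation p = 0.00452 and 0.00254) and -0.71 in RES (rho = -0.74, n = 14, permutation p = 0.00385 and 0.00369), with adjusted p = 0.0949 for either over the 42 pairs of tested members, a family added after the data were seen in which no pair passed the adjustment. Without the 2 sows farthest from the GJA1 median r was -0.57 and -0.63, and without FF sow 10 the FF value was -0.60 (adjusted p = 0.379 by permutation). Within the upper and lower read quality sets it was -0.61 and -0.92 in FF and -0.78 and -0.58 in RES. With diet means taken off, r over the 27 sows was -0.71, and 2.48% of 9512 other genes had an r with GJA1 at least as large in size, so such values are not rare among genes. The library GC content was set beside the members too, in 16 correlations added after the data were seen. In FF its r with GJA1 was -0.70 (rho = -0.53, n = 13, permutation p = 0.00819 and 0.0674, adjusted p = 0.0408) and was -0.35 without the 2 sows farthest from the GJA1 median, and with GJC1 it was 0.56 (rho = 0.42, n = 13, permutation p = 0.0502 and 0.153, adjusted p = 0.115). In RES it was -0.39 with GJA1 (rho = -0.36, n = 14, permutation p = 0.165 and 0.204) and 0.19 with GJC1 (rho = 0.11, n = 14, permutation p = 0.514 and 0.714). The part of this GC content in the relation of GJA1 and GJC1 was not tested.

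GJA1 was also set against 8 genes of follicle stage, in 32 correlations that included CDH9. INHBB, the gene of the inhibin beta B subunit made by growing follicles, was the 1 gene that passed the adjustment: r with GJA1 was -0.89 in FF (rho = -0.86, n = 13, adjusted p = 0.00192, permutation p = 6e-05 and 0.00032) and -0.61 in RES (rho = -0.60, n = 14, adjusted p = 0.294, permutation p = 0.0183 and 0.0244). Without the 2 FF sows farthest from the GJA1 median it was -0.80 (permutation p = 0.00305, adjusted p = 0.0976), and without FF sow 10 it was -0.82 (adjusted p = 0.0467 by permutation). Within the upper and lower read quality sets r was -0.80 and -0.98 in FF and -0.42 and -0.86 in RES. INHBB ran with the library GC content in FF as well (r = 0.84, rho = 0.72, n = 13, permutation p = 0.00036 and 0.00748, adjusted p = 0.00576), and in RES r was 0.54 (rho = 0.33, n = 14, permutation p = 0.0427 and 0.251, adjusted p = 0.114). The luteinising hormone receptor gene LHCGR gave r = 0.52 with GJA1 in FF (rho = 0.07, n = 13, adjusted p = 0.645 by permutation) and 0.25 in RES (rho = 0.27, n = 14, adjusted p = 0.676 by permutation), neither past the threshold. The steroidogenic gene CYP11A1, which is also the 1 theca marker counted above as lower in RES (log2 fold change -1.28 ± 0.33, adjusted p = 0.0092 by edgeR), gave r = -0.44 in FF (rho = -0.58, n = 13) and 0.02 in RES (rho = -0.10, n = 14) with GJA1, with adjusted permutation p = 0.645 and 0.942.

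**Figure D5:**
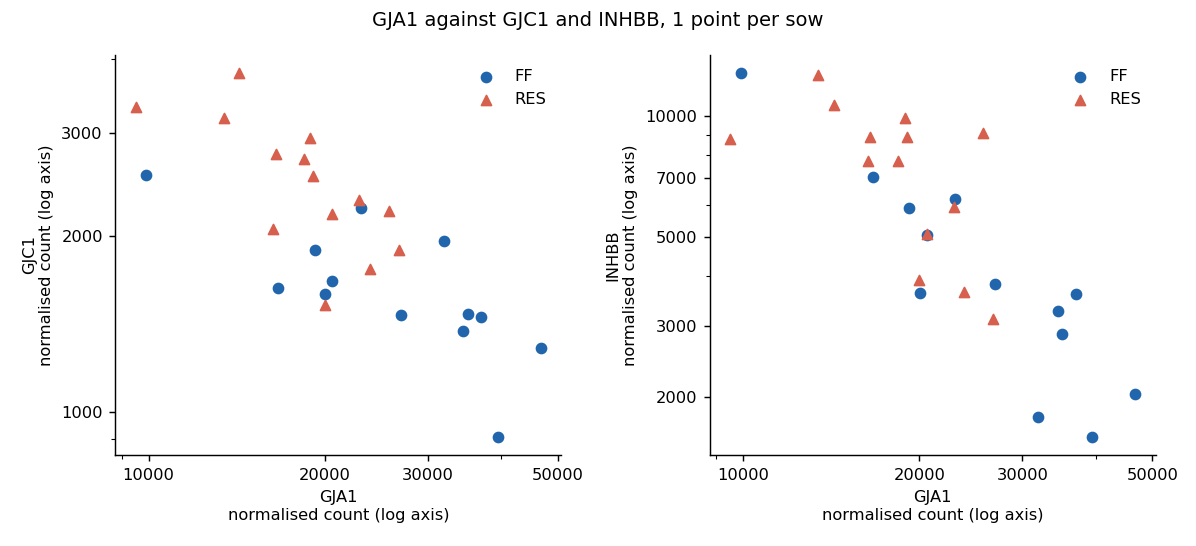
GJA1 (x) against GJC1 (left, y) and INHBB (right, y) as normalised counts on log axes, with 1 point per sow (13 FF, circles, and 14 RES, triangles). GJA1 and GJC1 had r = -0.73 in FF and -0.71 in RES, neither past the adjustment. GJA1 and INHBB had r = -0.89 in FF, which passed it, and -0.61 in RES, which did not.

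No correlation of CDH9 with another member or a stage gene passed the adjustment. The FF sows fell into a low and a high cluster of CDH9, for which no test was run, and an FF r pools both. With the other members r in FF ran from -0.44 (GJC1, rho = -0.39, n = 13) to 0.41 (CDH2, rho = 0.36, n = 13), both with an adjusted permutation p of 0.482. It was 0.33 with GJA1 (rho = 0.35, n = 13, adjusted permutation p = 0.671). With the 8 stage genes r in FF ran from -0.27 (INHBB, rho = -0.35, n = 13) to 0.11 (FSHR, rho = 0.09, n = 13), with adjusted permutation p = 0.676 and 0.837. In RES r was 0.48 with GJA1 (rho = 0.40, n = 14, permutation p = 0.0795 and 0.162, adjusted p = 0.482) and -0.47 with GJC1 (rho = -0.47, n = 14, permutation p = 0.0894 and 0.0931, adjusted p = 0.482), and without the 2 sows farthest from the CDH9 median -0.53 with GJC1 and 0.48 with GJA1. Within the upper read quality set they were 0.80 and -0.79 (n = 7), and within the lower 0.14 and -0.16 (n = 7). With the 8 stage genes r in RES ran from -0.37 (INHBB, rho = -0.22, n = 14) to 0.40 (IGFBP7, rho = 0.40, n = 14), both with an adjusted permutation p of 0.645. With the cell cycle inhibitor CDKN1A it was 0.25, and 0.59 without the 2 farthest sows (permutation p = 0.0355, not past the adjustment). Its sign differed between the upper read quality set (0.63, n = 7) and the lower (-0.30, n = 7). With the cell cycle genes CDK1 and CCNA2 it was -0.72 and -0.75 in the upper read quality set (n = 7) and 0.08 and -0.06 in the lower (n = 7). The genes most like CDH9 over the 27 sows, after diet means were taken off and among 9513 genes, were FGFR2 (r = 0.68), a receptor of fibroblast growth factors, FLRT3 (0.67), an adhesion protein that binds such receptors, and SIAE, RNF144A and LARP6 (0.63 each). That ranking is a description that also pools the 2 FF clusters, and over the 14 RES sows alone the 5 values were 0.64, 0.64, 0.62, 0.46 and 0.38. None of these 5 passed the threshold between diets, their log2 fold changes ranging from -0.57 to -0.29. The genes most like GJA1 were DECR1 (0.86), an enzyme of fatty acid oxidation, LGR4 (0.86), a receptor of R-spondins, PON1 (0.83), SGCE (0.82) and ARL6 (0.82), with log2 fold changes from -0.70 to -0.21 and adjusted p from 0.0512 to 0.265 by edgeR. All r in this likeness search share the same libraries and are descriptive.

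The wider set of junction genes gave a frame for these members. Of 83 tested genes in 9 lists (other cadherins and connexins, junction partners, cleavage enzymes and repressors), 11 (13.3%) passed in RES against FF, 10 lower and 1 higher, beside 14.1% of all genes tested, and their median log2 fold change was -0.05 against -0.02 over all genes. The share called is near that of all genes, and only the counts per list are described.

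Of the other classical cadherins 1 of 4 tested passed, CDH5, which was 100.6 in the lowest, 131.7 in the median and 195.3 in the highest FF sow and 51.6, 89.7 and 195.7 in RES (-0.56 ± 0.15, adjusted p = 0.0113 by edgeR). CDH5 is itself an endothelial marker, and 5 of 12 tested markers of that list were lower in RES with none higher. CDH24, the next in abundance, did not pass (-0.26 ± 0.21, adjusted p = 0.422). In the rest of the cadherin superfamily 3 of 20 passed, all lower in RES: the protocadherins PCDH7 (-0.75 ± 0.23, adjusted p = 0.0264) and PCDH17 (-0.63 ± 0.14, adjusted p = 0.00328) and the giant cadherin FAT4 (-0.40 ± 0.12, adjusted p = 0.0279), while FAT1, the most abundant of them at a mean of 7929 in FF and 7868 in RES, did not (-0.05 ± 0.13, adjusted p = 0.849). None of 3 other connexins passed, among them GJC3 (-0.31 ± 0.12, adjusted p = 0.0744) and GJA9 (-0.19 ± 0.15, adjusted p = 0.41), and the list's median was -0.31. None of 11 pannexins and gap junction partners passed either, including TJP1, the scaffold that binds GJA1 (0.02 ± 0.07, adjusted p = 0.911), and the ubiquitin ligase NEDD4, which acts on GJA1 (-0.12 ± 0.09, adjusted p = 0.365).

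Of 16 catenins and other anchors that hold cadherins to actin, 1 passed the threshold. CTNND1, which steadies cadherins at the membrane, was lower in RES (-0.24 ± 0.08, adjusted p = 0.0496 by edgeR), close to the limit. It passed in only 8 of the 27 fits without 1 library. CTNNB1 was not called (-0.01 ± 0.07, adjusted p = 0.956). In the nectins and related molecules 2 of 7 passed. ALCAM, an adhesion molecule of the immunoglobulin family, was 548.3 in the lowest, 1806.2 in the median and 5549.0 in the highest FF sow, against 105.3, 417.2 and 3785.9 in RES (-1.52 ± 0.49, adjusted p = 0.0361), with 13 of 14 RES sows below the FF median and the diets overlapping. ALCAM passed in 15 of the 27 fits without 1 library. NECTIN3 was also lower (-0.34 ± 0.09, adjusted p = 0.0115).

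Among tight junction and desmosome genes 3 of 9 passed. CLDN11, a claudin known from Sertoli cells and myelin, was 22.7 in the lowest, 44.3 in the median and 234.9 in the highest FF sow and 12.3, 20.7 and 47.0 in RES (-1.55 ± 0.32, adjusted p = 0.00277 by edgeR). CLDN5, an endothelial claudin under the level set for named genes, was lower (-0.80 ± 0.20, adjusted p = 0.00797), and PKP2, a plakophilin of desmosomes, was the 1 junction gene that was higher (0.53 ± 0.16, adjusted p = 0.0308). JAM2 (-0.31 ± 0.13, adjusted p = 0.115) and PERP (0.06 ± 0.34, adjusted p = 0.933), the most abundant of that list, did not pass. Of 9 genes of cadherin cleavage, ADAM9 was lower (-0.38 ± 0.13, adjusted p = 0.0428), but passed in only 9 of the 27 fits without 1 library. ADAM10, the main sheddase of N-cadherin, was not called (0.02 ± 0.08, adjusted p = 0.911).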

How the data were processed

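GCs of 13 FF and 14 RES sows gave 27 libraries from low-input, strand-marking RNA-seq with unique molecular identifiers. According to the paper's methods, the submitters' processing notes and the file headers, the authors cleaned reads with SOAPnuke, aligned them with HISAT2 (version 2.2.1) to Sscrofa11.1, kept uniquely mapped reads with SAMtools (1.16.1), collapsed copies with UMI-tools (1.1.4) and counted read pairs on exons of Ensembl release 110 with featureCounts (1.6.2) without a strand option. The deposited values are raw counts per gene. The authors left out 1 further FF sow for its RNA quality. Unique mapping can lower counts of genes with near-identical copies.

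The identifiers were given symbols from a gene name table (15623 of 35670 matched), 38 small RNA symbols were left out, and 11384 genes with a mean count of at least 5 were tested with edgeR (4.0.16) glmQLFit and glmQLFTest, TMM factors and Benjamini-Hochberg adjustment at 0.05, with diet as the only term. The SE is the size of the log2 fold change over the square root of its F statistic. Normalised counts are counts over DESeq2 (1.42.0) size factors of identifiers with a mean of at least 5. Correlations used log2(normalised count + 1), genes with a mean of at least 20 and 100000 two-sided permutations. The sows of a diet are separate animals. Read quality sets follow the per-library base quality in the paper's sequencing statistics. Alternatives were DESeq2, other filters and scalings, limma (3.58.1) voom with sample weights, read quality as a term or split, a replicate block and leaving out libraries. Scripts were tested on simulated data (Python 3, numpy, pandas, scipy).

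The members and gene lists were chosen with earlier results of these data known. Genes named from a list are those called with a mean of at least 20 normalised counts, up to 4 per direction by size of change, and the 2 most abundant. For likeness, the 5 genes with the highest r with CDH9 and with GJA1 are named. 1 gene of the cadherin cleavage list is not reported here.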

Additional observations from a re-analysis of the deposited data

How the results depend on the processing

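The 1610 genes past the threshold became 3193 with voom and sample weights and 1 in the lower read quality set alone, and ranged from 1182 (without FF sow 6 or RES sow 1) to 2350 (without RES sow 7) when 1 library was left out. It was 2086 without FF sow 10. The 3 members past the threshold became 1 (GJC1) with a replicate block, 0 in the lower set, 2 with voom and 2 to 3 over the fits without 1 library. The 11 junction genes became 19 in the upper set, 0 in the lower set, 24 with voom and 7 with the replicate block, and 6 (without FF sow 6) to 17 (without FF sow 10 or RES sow 7) without 1 library, with 7 without any 1 of FF sows 2, 8 and 14 or RES sows 1, 6, 11 and 12; 5 of the 11 stayed past the threshold in every such fit, while ADAM9 did in 9, CTNND1 in 8, ALCAM in 15, PKP2 in 21 and FAT4 and PCDH7 in 25 of 27. The count of members lost CDH9 with the replicate block (-2.32) and with voom (-3.01), and GJA1 with the block (-0.54) and without any 1 of FF sows 1, 6, 8 and 14 or RES sows 1, 3, 6, 9 and 12. The sign turned for CDH2 (-0.11), CDH6 (-0.30) and GJA5 (0.54) in the upper set, and for GJA5 without FF sow 10 (0.15) and without RES sow 13 (0.02), its range without 1 library being -0.35 to 0.15. The CV of GJA5 in FF was 0.27 without FF sow 10, against 0.52. The correlations past adjustment with stage genes went from 1 to 0 without the 2 farthest sows, and those with summed markers, all of CDH11, from 4 to 1 (stroma in RES) without those sows and to 2 (stroma and smooth muscle and pericyte, in RES) with Spearman's rho. CDH9 with the other members gave 0 of 12 past an adjusted p, and 0 at an unadjusted p under 0.05, under the 8 settings tried. The causes were not tested. The sow numbers pair different animals: with the replicate block 1084 genes passed, the deviations of 13 same-numbered pairs correlated between -0.221 and 0.297, and 0 FF sows correlated best with their own number. Depth limits CDH1, CDH12 and CDH9 in 6 FF sows at 1.1 to 9.5 and 8 RES sows at 0 to 9.2, where a few counts set each value.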
